A study of Mus musculus with 20 samples.

Results

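The mouse mitochondrial genome carries 37 genes, and all 37 were rows of a raw count table of 54532 genes, from which they were taken by their chromosome name (MT). They comprised 13 protein genes, 2 rRNA genes and 22 tRNA genes. Of the protein genes, 7 encode subunits of complex I, 1 of complex III, 3 of complex IV and 2 of complex V. The table held 20 RNA-seq libraries of C57BL/6 mice with 3 genotypes at Ager, the gene of RAGE (receptor for advanced glycation end-products). Ager AHA/AHA is a knock-in with the changes R216A, R217H and R218A, by which RAGE binds heparan sulfate poorly, Ager-/- is a knockout, and WT carries unmutated Ager. Air-pouch leukocytes, called PMN because the study describes them as mostly polymorphonuclear neutrophils, were collected 4 hr after 1 μg of LPS from Ager AHA/AHA (n = 3), Ager-/- (n = 3) and WT (n = 3) mice. Perfused lung, with no treatment labelled, came from Ager AHA/AHA (n = 4), Ager-/- (n = 4) and WT (n = 3) mice. Ages and sexes of these mice were not given in the labels. Ager AHA/AHA mice were made by injecting fertilized C57BL/6J eggs, and founders were bred to C57BL/6J mice. Ager-/- mice were a gift of another laboratory, and the C57BL/6 substrain of the Ager-/- and WT mice was not given in the sources used here. Mitochondrial DNA passes through the mother, and whether the 3 genotypes carried the same mitochondrial sequence was not tested.

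Libraries held 16764589 to 24818703 counts, of which the mitochondrial genes took 27446 to 54030 counts in PMN and 370708 to 584585 counts in lung. Ager, the targeted gene, averaged 2068 ± 575 CPM (counts scaled to library size, here within each tissue) in Ager AHA/AHA lung, 28.03 ± 2.06 CPM in Ager-/- lung and 2401 ± 430 CPM in WT lung (SD), so the knockout label was borne out in lung, while the knock-in changes cannot be seen from a level. In PMN its means were 1.32 CPM (Ager AHA/AHA), 3.33 CPM (Ager-/-) and 1.59 CPM (WT), too low to check the labels there. All 8 neutrophil markers were detected in every PMN group, with summed levels of 20418 to 29442 CPM in Ager AHA/AHA, 20432 to 21425 CPM in Ager-/- and 24691 to 34069 CPM in WT PMN.

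The mitochondrial genome is transcribed as long polycistronic RNAs, from which the tRNAs are cut out and the mRNAs and rRNAs between them are released. Its mRNAs encode core subunits of the oxidative phosphorylation complexes, while all other subunits, and every protein that copies, transcribes and processes the genome, come from the nucleus. Complex I, the NADH dehydrogenase, takes electrons from NADH and pumps protons, and the core of its membrane arm is built from the 7 mitochondrially encoded ND proteins. Neutrophils are known for few mitochondria and a largely glycolytic metabolism. Stretches of mitochondrial DNA have also been copied into nuclear chromosomes during evolution, and reads from such copies and from the mitochondrial gene can be hard to tell apart.

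One such copy is annotated in the mouse genome. On chromosome 1 (GRCm38, minus strand), 7 pseudogene rows between 24611535 and 24616197 ran in the same order as the mitochondrial stretch from 6381 to 11042, over 4663 bases against 4662 bases. Compared base by base in the GENCODE M21 transcripts, Gm28661 was identical to mt-Co2 over 681 bases, Gm10925 to mt-Atp6 over 678 bases, Gm28437 to mt-Co3 over 783 bases and Gm10222 to mt-Nd4l over 294 bases. Gm28439 was identical to the first 876 bases of mt-Nd4. Gm29216 matched the last 492 bases of mt-Co1 at 486 bases, with all its differences between positions 1056 and 1066 of the gene. Gm28438 matched mt-Nd3 at 344 of 345 bases, and its 1 difference was T3C (mt-Nd3 base, position from the 5' end of the gene, copy base), which is position 9461 of the mitochondrial genome and the last base of the first codon. The first 60 bases of the pair are shown because the results turn on it, with the differing base in capitals. They are mt-Nd3 at MT:9459-9518 on the plus strand and Gm28438 at chr1:24613060-24613119 on the minus strand, both from GENCODE M21 on GRCm38.
mt-Nd3: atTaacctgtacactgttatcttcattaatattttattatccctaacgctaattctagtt
Gm28438: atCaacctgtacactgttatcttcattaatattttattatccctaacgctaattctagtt

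Immediately upstream of mt-Nd3 lies mt-Tg (MT:9391-9458, plus strand), the gene of the glycine tRNA, which fills the gap between mt-Co3 and mt-Nd3. Its sequence is shown because it was the only tRNA gene that edgeR with TMM scaling (between-library scaling on the bulk of genes) called between genotypes, with its anticodon in capitals. Between the ends of the matched stretches of mt-Co3 and mt-Nd3 lay 69 bases in the mitochondrial genome and 69 bases on chromosome 1, where no row of the table covered them. On the other side, between mt-Nd3 and mt-Nd4l, lay 73 bases in the mitochondrial genome, with the tRNA gene mt-Tr, and 74 bases on chromosome 1. The copy thus differed in length there, and the bases of both gaps on chromosome 1 were not read.
mt-Tg: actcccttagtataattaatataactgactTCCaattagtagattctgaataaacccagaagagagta

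The genes inside the copied stretch had far lower counts than their neighbours. In WT lung, the 5 protein genes with no copy in this stretch (mt-Nd1, mt-Nd2, mt-Nd5, mt-Nd6 and mt-Cytb) lay between 1084 and 3575 CPM per kb of gene, and mt-Co1 and mt-Nd4, copied in part, were at 5076 and 1604 CPM per kb. The 5 genes copied over nearly their whole length (mt-Co2, mt-Atp6, mt-Co3, mt-Nd3 and mt-Nd4l) lay between 5.46 and 24.7 CPM per kb, and mt-Atp8, which lies inside the stretch without a copy row of its own, was at 2.53 CPM per kb. The order was alike in PMN, where the genes with no copy lay between 31.5 and 112 CPM per kb and those copied nearly whole between 0.121 and 1.27 CPM per kb in WT libraries. Levels of the copied genes are therefore uncertain in every library, since the sources do not say how reads matching several places were counted. mt-Nd6, an ND subunit and the only protein gene on the minus strand, overlaps the end of mt-Nd5, and the strand setting of the counting is not stated either.

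**Figure D1:**
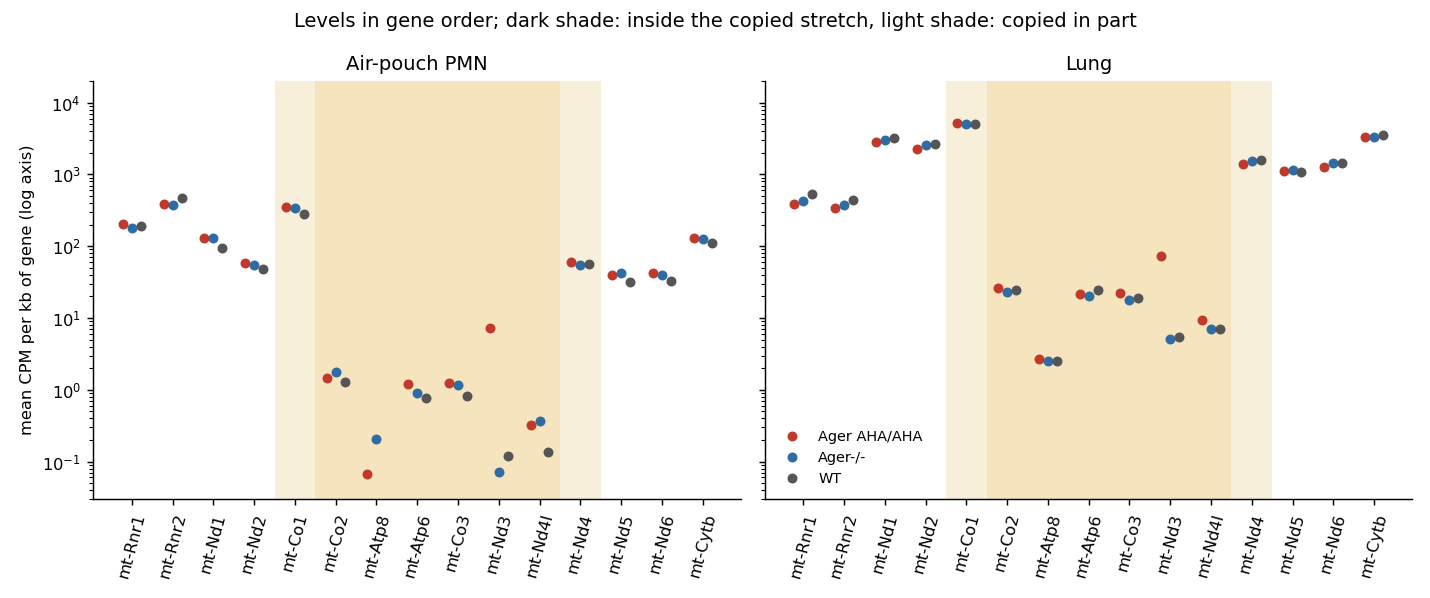
Mean CPM per kb of gene (log axis) of the 13 protein and 2 rRNA genes in the order of the mitochondrial genome, by genotype and tissue, with values of 0 left out. Genes inside the copied stretch (dark shade) sat far below those outside it, and mt-Nd3 was the gene on which the Ager AHA/AHA points stood apart.

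mt-Nd3, the ND3 subunit of complex I, was the member that separated the genotypes. In lung it had 481, 562, 491 and 688 counts in Ager AHA/AHA libraries and 26, 38, 37 and 38 counts in Ager-/- libraries, against 42, 34 and 45 counts in WT libraries. Every Ager AHA/AHA lung was thus far above every lung of the other genotypes, while the Ager-/- and WT lungs overlapped. The log2 fold change was 3.76 (SE 0.17, adjusted p = 3.60e-09, edgeR's quasi-likelihood test with Benjamini-Hochberg adjustment) for Ager AHA/AHA over WT and -3.84 (SE 0.15, adjusted p = 2.38e-10) for Ager-/- over Ager AHA/AHA. For Ager-/- over WT it was -0.08 (SE 0.18, adjusted p = 0.880). From summed counts, mt-Nd3 was 13.6-fold higher in Ager AHA/AHA than in WT lung, with a 95% interval of 11.3 to 16.5 that covers counting error only.

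PMN showed the same direction at much lower counts of the gene. mt-Nd3 had 58, 52 and 47 counts in Ager AHA/AHA PMN and 2, 0 and 0 counts in Ager-/- PMN, against 1, 1 and 0 counts in WT PMN. The groups did not overlap between Ager AHA/AHA and either other genotype. The gene passed the filter on low counts in PMN only through the Ager AHA/AHA libraries, so that it had to differ there, and its values in PMN are given as a description. The fitted log2 fold change was 5.76 for Ager AHA/AHA over WT and -6.19 for Ager-/- over Ager AHA/AHA. With 157 counts in all in Ager AHA/AHA and 2 in WT PMN, the ratio was 60.5, with a 95% counting interval of 16.5 to 504. Between Ager-/- and WT PMN, at 2 counts each, no difference was detectable at this depth. The knock-in and knockout comparisons share the WT libraries, and the last contrast shares libraries with both.

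Gm28438, the copy of mt-Nd3, had the opposite pattern. In lung it had 94, 76, 99 and 50 counts in Ager AHA/AHA libraries and 720, 628, 1131 and 936 counts in Ager-/- libraries, against 1194, 801 and 1148 counts in WT libraries. In PMN it had 1, 4 and 1 counts in Ager AHA/AHA libraries and 56, 69 and 44 counts in Ager-/- libraries, against 49, 51 and 34 counts in WT libraries. All Ager AHA/AHA libraries were below all others of their tissue. Relative to WT, Gm28438 was lower in Ager AHA/AHA lung, with a fitted change of -3.70 on the log2 scale (SE 0.25, adjusted p = 1.19e-05). Ager-/- over Ager AHA/AHA lung gave 3.54 (adjusted p = 3.83e-06). In PMN the row passed the filter on low counts only through the Ager-/- and WT libraries, so that it had to differ. Its fitted changes there were -4.79 for Ager AHA/AHA over WT and 4.63 for Ager-/- over Ager AHA/AHA, given as a description. Ager-/- over WT was not called in either tissue (adjusted p = 0.789 in lung and 0.775 in PMN).

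**Figure D2:**
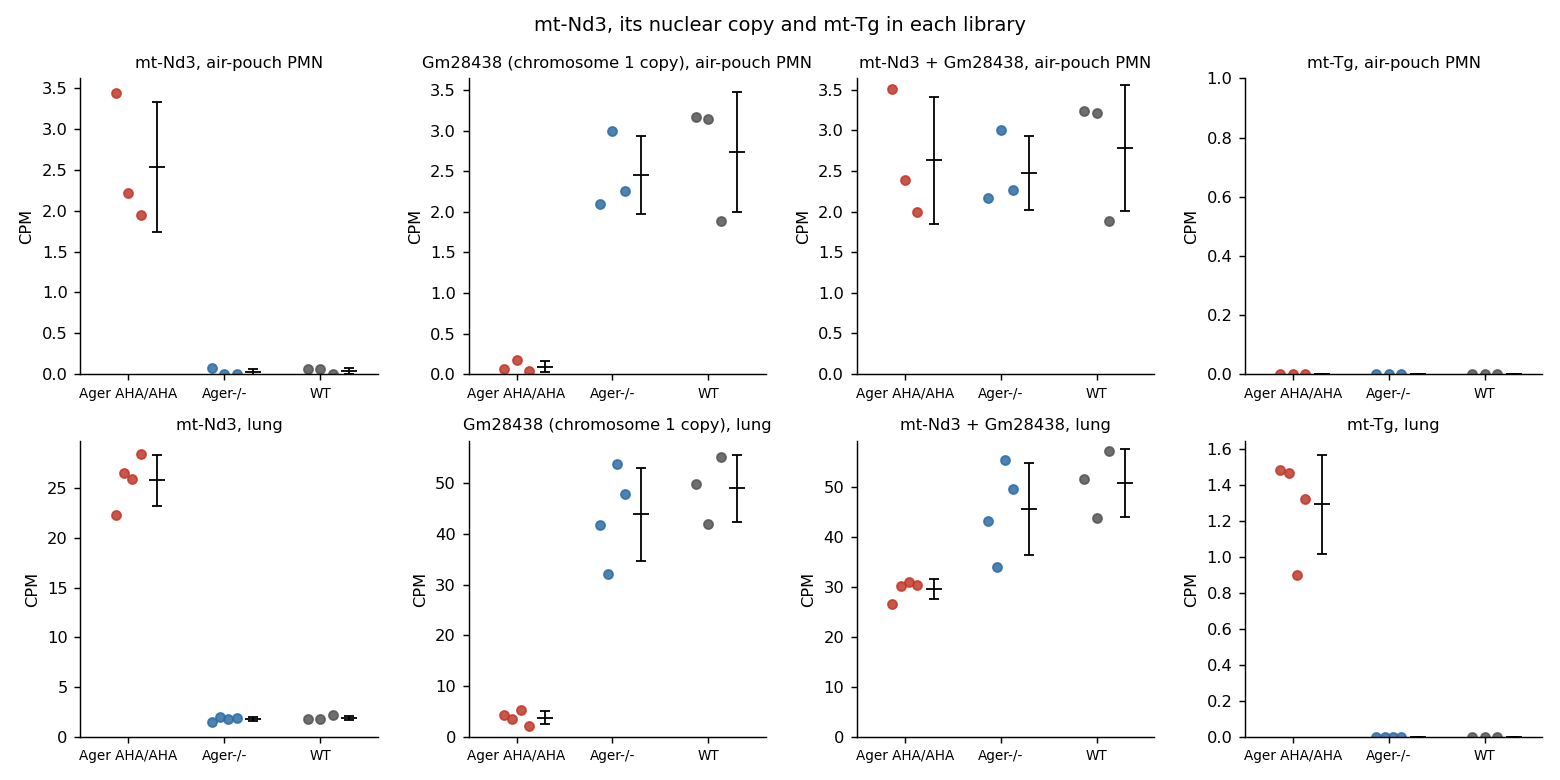
CPM of mt-Nd3, of its chromosome 1 copy Gm28438, of their sum and of mt-Tg in each library (points), with the mean and SD beside them, for PMN (top) and lung (bottom). The Ager AHA/AHA points were high for mt-Nd3 and low for Gm28438 in both tissues, and their sum stood lower in Ager AHA/AHA lung (29.6 CPM) than in WT lung (50.9 CPM).

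Summed over both rows, the genotypes came much closer. In PMN the sum averaged 2.63 ± 0.785 CPM in Ager AHA/AHA, 2.48 ± 0.455 CPM in Ager-/- and 2.78 ± 0.773 CPM in WT libraries (SD), and the log2 fold change for Ager AHA/AHA over WT was -0.09 (SE 0.30, adjusted p = 0.896). In lung it averaged 29.6 ± 1.98 CPM in Ager AHA/AHA, 45.6 ± 9.21 CPM in Ager-/- and 50.9 ± 6.77 CPM in WT libraries. There the sum was called lower in Ager AHA/AHA than in WT, at -0.78 on the log2 scale (SE 0.14, adjusted p = 0.0393), and higher in Ager-/- than in Ager AHA/AHA, at 0.63 (SE 0.13, adjusted p = 0.0171). Ager-/- over WT was not called (-0.16, SE 0.14, adjusted p = 0.650). The first of these calls was lost without any 1 of 6 of the 7 libraries, all but WT lung 2 (adjusted p up to 0.234), and the second without Ager AHA/AHA lung 1 (adjusted p = 0.0578) or Ager-/- lung 5 (adjusted p = 0.0605). The higher level of mt-Nd3 in Ager AHA/AHA was therefore not seen in the sum in either tissue.

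The share of the pair's counts that fell on the mitochondrial row gives the same data without scaling. In lung it was 83.2% to 93.2% in Ager AHA/AHA libraries, 3.17% to 5.71% in Ager-/- libraries and 3.40% to 4.07% in WT libraries. In PMN it was 92.9% to 98.3% in Ager AHA/AHA, 0% to 3.45% in Ager-/- and 0% to 2.00% in WT libraries. The exact binomial intervals (95%) of the Ager AHA/AHA libraries reached down to 79.96% in lung and 82.7% in PMN, and those of the other libraries reached up to 7.75% in lung and 11.9% in PMN. Library by library, the Ager AHA/AHA group and the other groups lay at opposite ends of the scale.

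The genes on both sides of mt-Nd3 showed a smaller shift of the same sign in lung, a pattern that was looked for after the values of mt-Nd3 were seen. For mt-Co3, a core subunit of complex IV (cytochrome c oxidase), the mitochondrial row held 52.9% to 58.6% of the counts of gene and copy in Ager AHA/AHA, 37.5% to 42.4% in Ager-/- and 36.1% to 39.0% in WT lung. For mt-Nd4l, the ND4L subunit of complex I, it held 42.9% to 51.9% in Ager AHA/AHA, 28.2% to 37.7% in Ager-/- and 27.6% to 38.4% in WT lung. Farther upstream the groups overlapped: mt-Co2 had 42.8% to 50% in Ager AHA/AHA, 43.0% to 48.3% in Ager-/- and 43.0% to 49.1% in WT lung, and mt-Atp6 had 43.1% to 47.3% in Ager AHA/AHA, 45.5% to 47.0% in Ager-/- and 46.0% to 49.4% in WT lung. In PMN the counts of these pairs were too few to place the genotypes, with 66 counts of mt-Co3 and 63 of Gm28437 over the Ager AHA/AHA libraries.

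**Figure D3:**
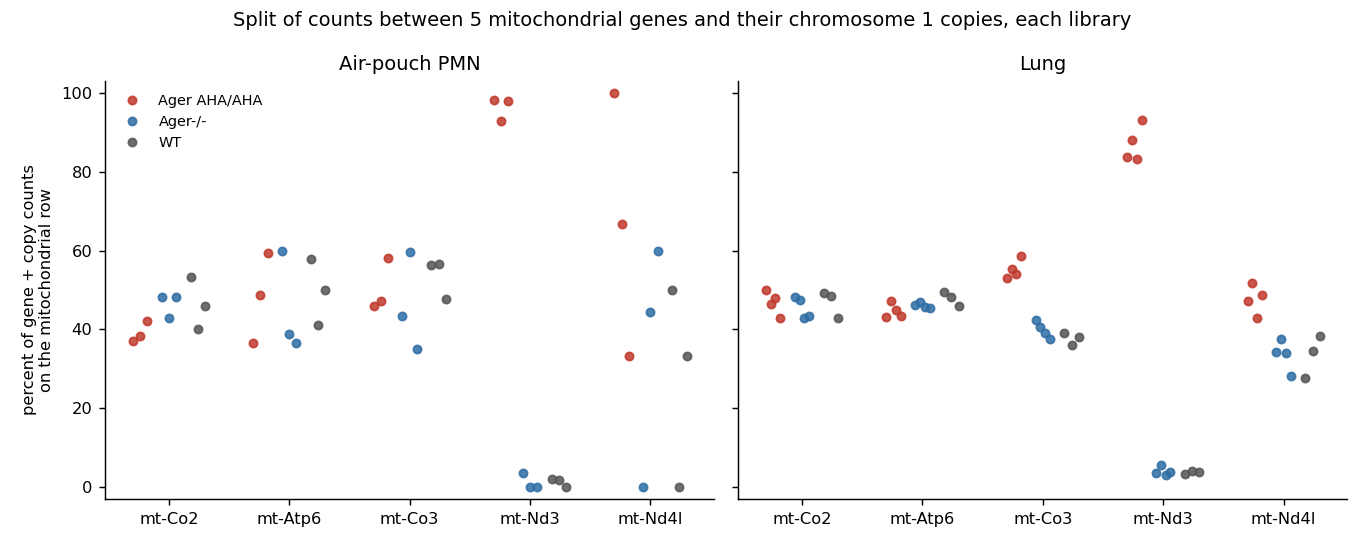
Percent of the counts of a mitochondrial gene and its chromosome 1 copy that lay on the mitochondrial row, for 5 genes in genome order and each library, by genotype and tissue. At mt-Nd3 the Ager AHA/AHA libraries were at 83.2% or more and all others at 5.71% or less, and in lung mt-Co3 and mt-Nd4l showed a smaller separation.

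Of these neighbouring rows, Gm28437 (the copy of mt-Co3) was called higher in Ager-/- than in Ager AHA/AHA lung, by 0.57 on the log2 scale (SE 0.14, adjusted p = 0.0380). Its levels were 17.6 to 23.7 CPM in Ager-/- libraries and 11.5 to 15.95 CPM in Ager AHA/AHA libraries. That call was lost with the replicate number as a block (adjusted p = 0.0610) and without any 1 of Ager-/- lungs 1, 4 and 5 and Ager AHA/AHA lungs 1, 3 and 4 (adjusted p up to 0.125). It was also lost with library totals as the scaling (adjusted p = 0.0656), in a fit of only those groups (0.0521), after thinning to the smallest library (0.0527) and by limma on the authors' FPKM (0.383 and 0.336 with pseudocounts of 1 and 0.1). For Ager AHA/AHA over WT it was -0.78 (SE 0.15, adjusted p = 0.0528). mt-Co3 itself was at 0.23 (SE 0.14, adjusted p = 0.947) for Ager AHA/AHA over WT lung. The other copy rows were not called in any genotype comparison in which they were tested, and Gm10222 and Gm28439 were too low to be tested in PMN. In lung Gm29216 averaged 10.7 ± 1.93 CPM in Ager AHA/AHA, 10.9 ± 1.18 CPM in Ager-/- and 11.2 ± 2.19 CPM in WT libraries, Gm28661 20.3 ± 5.58 CPM in Ager AHA/AHA, 19.4 ± 5.63 CPM in Ager-/- and 19.4 ± 7.96 CPM in WT libraries, and Gm10925 18.2 ± 3.06 CPM in Ager AHA/AHA, 16.1 ± 1.16 CPM in Ager-/- and 18.4 ± 4.14 CPM in WT libraries. Gm10222 averaged 3.14 ± 0.718 CPM in Ager AHA/AHA, 4.32 ± 1.55 CPM in Ager-/- and 3.98 ± 1.15 CPM in WT lung, and Gm28439 6.72 ± 1.37 CPM in Ager AHA/AHA, 6.27 ± 0.844 CPM in Ager-/- and 5.57 ± 1.32 CPM in WT lung. mt-Nd4l had 66, 55, 57 and 63 counts in Ager AHA/AHA lung, 33, 29, 59 and 44 counts in Ager-/- lung and 34, 30 and 68 counts in WT lung, and was not called (0.43, SE 0.31, adjusted p = 0.947).

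mt-Tg was the other member called. It had 32, 31, 17 and 32 counts in Ager AHA/AHA lung, against 0 counts in each Ager-/- lung and each WT lung, and 0 counts in all PMN libraries. Set against a floor of 3 counts over the group, it was at least 27.7-fold higher in Ager AHA/AHA than in WT lung and at least 33.6-fold lower in Ager-/- lung than in that of the knock-in. edgeR called both differences, but the gene passed the filter only through the Ager AHA/AHA libraries, so that it had to differ. No fitted fold is given, nothing is read from the calls, and the counts stand as a description. Across the reading frame of mt-Nd3, its downstream neighbour mt-Tr, the arginine tRNA gene, had 6, 11, 3 and 5 counts in Ager AHA/AHA, 0, 4, 2 and 4 counts in Ager-/- and 0 counts in each WT lung, too few to be tested. It is named here after its values were seen.

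Counted over the whole genome, then, few members passed. In lung, 27 members were tested, and 2 (mt-Nd3 and mt-Tg) were higher and 0 lower in Ager AHA/AHA than in WT, where 0.0859% of all 17458 genes tested were called higher and 0.0859% lower. Of these, mt-Tg entered the test only through the libraries in which it was high, so its call followed from the filter and nothing is read from it. For Ager-/- over Ager AHA/AHA in lung the same 2 members were lower, mt-Tg again through the filter, and 0 higher, beside 1.79% of all genes lower and 1.37% higher. In PMN, 16 members were tested, and mt-Nd3 alone was called, higher in Ager AHA/AHA than in WT (all genes: 1.8% higher and 1.84% lower) and lower in the Ager-/- libraries relative to the knock-in (all genes: 0.275% lower and 0.258% higher). Both PMN calls followed from the filter, as said above, and nothing is read from them. Comparing Ager-/- with WT, edgeR called 0 members in PMN, where 6.65% of all genes were higher and 4.01% lower, and 0 in lung, where 1.45% were higher and 1.64% lower. At an unadjusted p under 0.05 these counts were 2 (mt-Nd1 and mt-Tp) in PMN and 1 (mt-Tw, the tryptophan tRNA gene, named after its values were seen) in lung. With library totals in place of TMM, 6 members were called higher in Ager-/- than in WT PMN, where the median of all genes was at 0.40 by that scaling and 0.01 by TMM, and the median of the protein genes 0.27 above it by both. What share of all genes was called with library totals was not counted, so nothing is read from these 6. DESeq2 called 0 members for Ager-/- over WT in either tissue, and limma on the authors' FPKM called 1 in lung, which was mt-Tw.

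**Figure D4:**
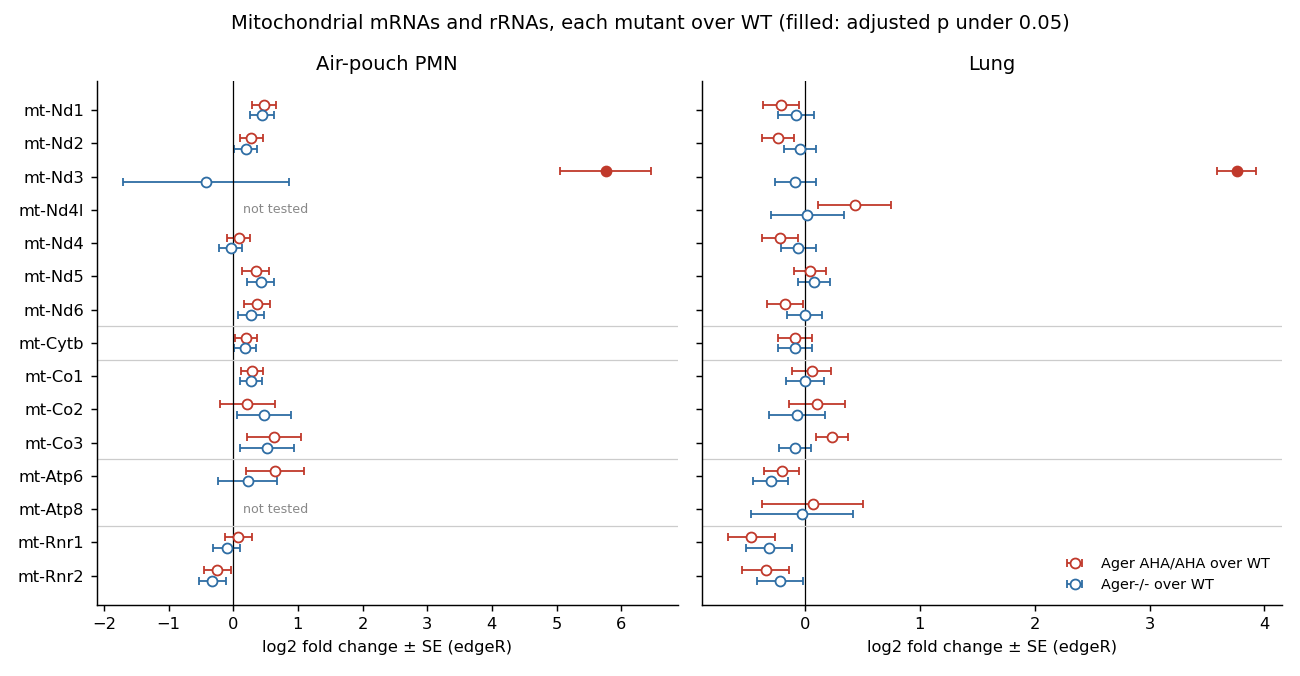
Log2 fold change with its SE (edgeR) of the 13 protein genes and 2 rRNA genes, Ager AHA/AHA over WT and Ager-/- over WT, in PMN and lung (horizontal scales differ). Filled points passed an adjusted p under 0.05, which only mt-Nd3 in Ager AHA/AHA did, at 5.76 in PMN, where it entered the test only through those libraries, and 3.76 in lung.

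The other complex I genes did not follow mt-Nd3. In lung, mt-Nd1 averaged 2667 ± 240 CPM in Ager AHA/AHA, 2929 ± 445 CPM in Ager-/- and 3088 ± 597 CPM in WT libraries (SD). mt-Nd2 averaged 2330 ± 209 CPM in Ager AHA/AHA, 2665 ± 341 CPM in Ager-/- and 2745 ± 423 CPM in WT lung. mt-Nd4 averaged 1900.2 ± 143 CPM in Ager AHA/AHA, 2124 ± 349 CPM in Ager-/- and 2210.02 ± 421 CPM in WT lung, and mt-Nd5 2043 ± 258 CPM in Ager AHA/AHA, 2086 ± 261 CPM in Ager-/- and 1977 ± 237 CPM in WT lung. mt-Nd6 averaged 661 ± 85.8 CPM in Ager AHA/AHA, 746 ± 126 CPM in Ager-/- and 747 ± 118 CPM in WT lung. These genes encode the ND subunits of the same numbers. The range of the fitted log2 fold changes of the 7 complex I genes was -0.24 to 3.76 for Ager AHA/AHA over WT, with a median of -0.18, and -0.08 to 0.08 for Ager-/- over WT, with a median of -0.04. The medians over all genes tested were 0.01 in both. All the complex I genes but mt-Nd3 and mt-Nd4l were within 0.24 of 0 in both comparisons.

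In PMN, mt-Nd1, the ND1 subunit, had 99.2, 153 and 122 CPM in the Ager AHA/AHA libraries, 132, 123 and 114 CPM in the Ager-/- libraries and 79.9, 105 and 84.9 CPM in the WT libraries. The Ager-/- libraries were all above the WT libraries, and the Ager AHA/AHA libraries overlapped them. The log2 fold changes of 0.47 (SE 0.19, adjusted p = 0.153) for Ager AHA/AHA over WT and 0.45 (SE 0.19, adjusted p = 0.113) for Ager-/- over WT were not called. mt-Nd5, the ND5 subunit, averaged 73.0 ± 10.95 CPM in Ager AHA/AHA, 76.9 ± 14.2 CPM in Ager-/- and 57.4 ± 14.4 CPM in WT PMN. mt-Nd2 averaged 59.95 ± 11.4 CPM in Ager AHA/AHA, 56.5 ± 4.09 CPM in Ager-/- and 49.5 ± 6.55 CPM in WT PMN. For mt-Nd4 the means were 82.5 CPM in Ager AHA/AHA, 75.9 CPM in Ager-/- and 77.8 CPM in WT PMN. mt-Nd6 averaged 21.8 ± 4.82 CPM in Ager AHA/AHA, 20.5 ± 4.12 CPM in Ager-/- and 17.0 ± 2.37 CPM in WT PMN. None of these differences passed the test.

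Set against the summed counts of the other mitochondrial protein genes in the same library, which needs no scaling to other genes, mt-Nd3 again stood apart. The log2 ratio was higher by 3.81 in Ager AHA/AHA than in WT lung (exact permutation test over libraries, two-sided, p = 0.0571, the smallest that 4 against 3 libraries allow, and 0.267 adjusted over 42 tests of 7 genes in 6 comparisons). It differed by -3.87 between Ager-/- and Ager AHA/AHA lung (exact permutation p = 0.0286, the smallest possible, adjusted 0.267) and by 5.02 between Ager AHA/AHA and WT PMN (exact permutation p = 0.1, the smallest possible, adjusted 0.35). mt-Nd1, mt-Nd4 and mt-Nd4l also did not overlap between Ager AHA/AHA and WT lung by this measure, with differences of -0.16, -0.16 and 0.58. Nor did mt-Nd1 (0.11) and mt-Nd4l (-0.48) between Ager-/- and Ager AHA/AHA lung, or mt-Nd1 (0.21) between Ager-/- and WT PMN. How often other genes fail to overlap by this measure was not counted, so nothing is read from these cases. None of the 42 tests could have passed after adjustment at these group sizes, and of the designs only the 4 against 4 lungs could have passed before it. That none passed is therefore not read as a result. Between Ager-/- and WT lung the 7 ratios differed by 0.11 or less on the log2 scale in either direction.

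For the genes of the other complexes, edgeR with TMM scaling made no call between genotypes, while with library totals mt-Co1 and mt-Cytb were called for Ager-/- over WT in PMN. mt-Cytb, the cytochrome b subunit of complex III, averaged 3849 ± 355 CPM in Ager AHA/AHA, 3843 ± 523 CPM in Ager-/- and 4089 ± 700 CPM in WT lung, and 147 ± 17.7 CPM in Ager AHA/AHA, 146 ± 8.94 CPM in Ager-/- and 129 ± 11.2 CPM in WT PMN. mt-Co1, the catalytic subunit of complex IV and the highest per kb of the protein genes measured outside the fully copied genes, averaged 8163 ± 976 CPM in Ager AHA/AHA, 7834 ± 1056 CPM in Ager-/- and 7842 ± 1775 CPM in WT lung. In PMN it averaged 535 ± 56.1 CPM in Ager AHA/AHA, 529 ± 21.6 CPM in Ager-/- and 439 ± 62.9 CPM in WT libraries. The other subunits of complexes IV and V lie in the copied stretch and were low. In lung mt-Co2 averaged 17.9 ± 5.26 CPM in Ager AHA/AHA, 15.9 ± 3.12 CPM in Ager-/- and 16.6 ± 4.79 CPM in WT libraries. mt-Co3 averaged 17.5 ± 0.900 CPM in Ager AHA/AHA, 14.03 ± 1.36 CPM in Ager-/- and 14.9 ± 2.93 CPM in WT lung, and all Ager-/- lungs lay below all Ager AHA/AHA lungs (log2 fold change -0.32, SE 0.13, adjusted p = 0.258). mt-Atp6 and mt-Atp8 encode subunits of complex V, the ATP synthase. mt-Atp6 averaged 14.7 ± 2.05 CPM in Ager AHA/AHA, 13.7 ± 0.701 CPM in Ager-/- and 16.8 ± 3.36 CPM in WT lung, and mt-Atp8 0.547 ± 0.110 CPM in Ager AHA/AHA, 0.511 ± 0.0868 CPM in Ager-/- and 0.516 ± 0.243 CPM in WT lung. The 6 genes of complexes III, IV and V had median log2 fold changes of 0.06 for Ager AHA/AHA over WT and -0.08 for Ager-/- over WT in lung. In PMN mt-Co2 averaged 0.997 CPM in Ager AHA/AHA, 1.20 CPM in Ager-/- and 0.866 CPM in WT libraries, mt-Co3 0.988 CPM in Ager AHA/AHA, 0.926 CPM in Ager-/- and 0.647 CPM in WT libraries, and mt-Atp6 0.821 CPM in Ager AHA/AHA, 0.616 CPM in Ager-/- and 0.529 CPM in WT libraries. There 5 of the 6 genes were tested, mt-Atp8 being too low, and the medians were 0.29 for Ager AHA/AHA over WT and 0.27 for Ager-/- over WT, with none called.

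All 11 protein genes tested in PMN had positive log2 fold changes for Ager AHA/AHA over WT (median 0.35), mt-Nd3 through the filter, and 9 of 11 did for Ager-/- over WT (median 0.27), where the medians of all genes were 0.02 and 0.01. Both comparisons share the WT libraries. In lung 7 of 13 were positive for Ager AHA/AHA over WT and 2 of 13 for Ager-/- over WT. Apart from mt-Nd3, no single gene passed the test, so that the common sign in PMN stands as a description. Sums of marker genes of other cells varied with genotype there: 8 macrophage markers (1 of them at 0 in Ager-/-) summed to 234 to 262 CPM in Ager AHA/AHA, 264 to 289 CPM in Ager-/- and 200.4 to 247 CPM in WT PMN, and 8 T cell markers to 28.3 to 58.1 CPM in Ager AHA/AHA, 53.0 to 69.9 CPM in Ager-/- and 18.4 to 24.5 CPM in WT PMN. The macrophage sums of Ager AHA/AHA and WT libraries overlapped. For Ager AHA/AHA over WT, 3 of 7 macrophage markers tested and 1 of 8 T cell markers were called higher, and for Ager-/- over WT 4 of 7 and 6 of 8, beside 1.8% (Ager AHA/AHA) and 6.65% (Ager-/-) of all genes. The macrophage markers called were C1qa, C1qb and C1qc in both mutants, and Mertk as well in Ager-/-. The 4 lung endothelium markers (1 at 0 in each group) summed to 32.96 to 56.9 CPM in Ager AHA/AHA, 35.4 to 43.1 CPM in Ager-/- and 69.1 to 81.2 CPM in WT PMN. Of the 2 tested, edgeR called 1 lower in Ager-/-, which was Pecam1 (-1.01, SE 0.20, adjusted p = 0.00742). In Ager AHA/AHA 0 were called (1 at an unadjusted p under 0.05). Which cells in PMN these counts came from was not tested. Of the 8 neutrophil markers, whose sums stand above, 0 were called in Ager AHA/AHA (0 at that p) and 1 was called lower in Ager-/- (5 at that p), with medians of -0.19 for Ager AHA/AHA and -0.50 for Ager-/- over WT, where 1.84% and 4.01% of all genes were called lower. The part of these markers in these fold changes was not tested, and in bulk samples fewer cells of a type and less RNA per cell cannot be told apart.

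The 2 rRNA genes encode the 12S (mt-Rnr1) and 16S (mt-Rnr2) RNAs of the mitochondrial ribosome. In lung mt-Rnr1 had 257, 332, 458 and 416 CPM in the Ager AHA/AHA libraries, 319, 384, 551 and 376 CPM in the Ager-/- libraries and 469, 583 and 467 CPM in WT libraries. Its log2 fold change was -0.47 (SE 0.20, adjusted p = 0.947) for Ager AHA/AHA over WT and -0.31 (SE 0.20, adjusted p = 0.495) for Ager-/- over WT. mt-Rnr2 averaged 547 ± 102 CPM in Ager AHA/AHA, 597 ± 164 CPM in Ager-/- and 695 ± 130 CPM in WT lung. In PMN mt-Rnr1 averaged 193 ± 24.1 CPM in Ager AHA/AHA, 171 ± 45.2 CPM in Ager-/- and 184 ± 41.6 CPM in WT libraries, and mt-Rnr2 617 ± 21.8 CPM in Ager AHA/AHA, 585 ± 152 CPM in Ager-/- and 732 ± 193 CPM in WT libraries. No rRNA difference between genotypes passed the test.

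RNAs as short as tRNAs are poorly retained in libraries of this kind, as a rule, and most tRNA genes were near 0 here. Of 22, 12 were tested in lung and 3 in PMN, and mt-Td had 0 counts in every library. mt-Tp, the proline tRNA gene on the minus strand, was the highest in both tissues, with lung means of 28.9 ± 7.53 CPM (Ager AHA/AHA), 37.6 ± 2.45 CPM (Ager-/-) and 31.9 ± 1.91 CPM (WT). In PMN it was at 2.18 ± 0.649 CPM in Ager AHA/AHA, 2.33 ± 0.554 CPM in Ager-/- and 1.35 ± 0.317 CPM in WT libraries, with fitted changes over WT of 0.71 for Ager AHA/AHA (SE 0.34, adjusted p = 0.227) and 0.80 for Ager-/- (SE 0.33, adjusted p = 0.116). The next highest tRNA gene in each group averaged 10.2 to 12.3 CPM in lung and 0.542 to 1.09 CPM in PMN.

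Summed over all 37 genes, the mitochondrial share of a library's counts is given as a description. With 3 or 4 libraries per group, no comparison could have reached an adjusted p under 0.05 in the exact permutation test. In PMN it was 0.149%, 0.206% and 0.191% in Ager AHA/AHA, 0.244%, 0.203% and 0.182% in Ager-/- and 0.157%, 0.162% and 0.151% in WT libraries. The Ager-/- libraries lay above all WT libraries, by 0.0530 percentage points on average (exact permutation test, two-sided, p = 0.1, the smallest that 3 against 3 allow, and 0.6 adjusted over 6 comparisons). In lung the mean shares were 2.30% ± 0.281 in Ager AHA/AHA, 2.33% ± 0.313 in Ager-/- and 2.37% ± 0.440 in WT libraries (SD), with adjusted p = 0.943 by the exact permutation test in each of the 3 comparisons. Single WT lungs lay between 1.93% and 2.81%, a wider span than that between the genotype means. Summed cardiac muscle markers, from a tissue rich in mitochondria that can adhere to dissected lung, varied within genotypes too (all 8 detected in each group), from 274 to 1100 CPM in Ager AHA/AHA, 169 to 522 CPM in Ager-/- and 152 to 818 CPM in WT lung, and their part in the spread was not tested.

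**Figure D5:**
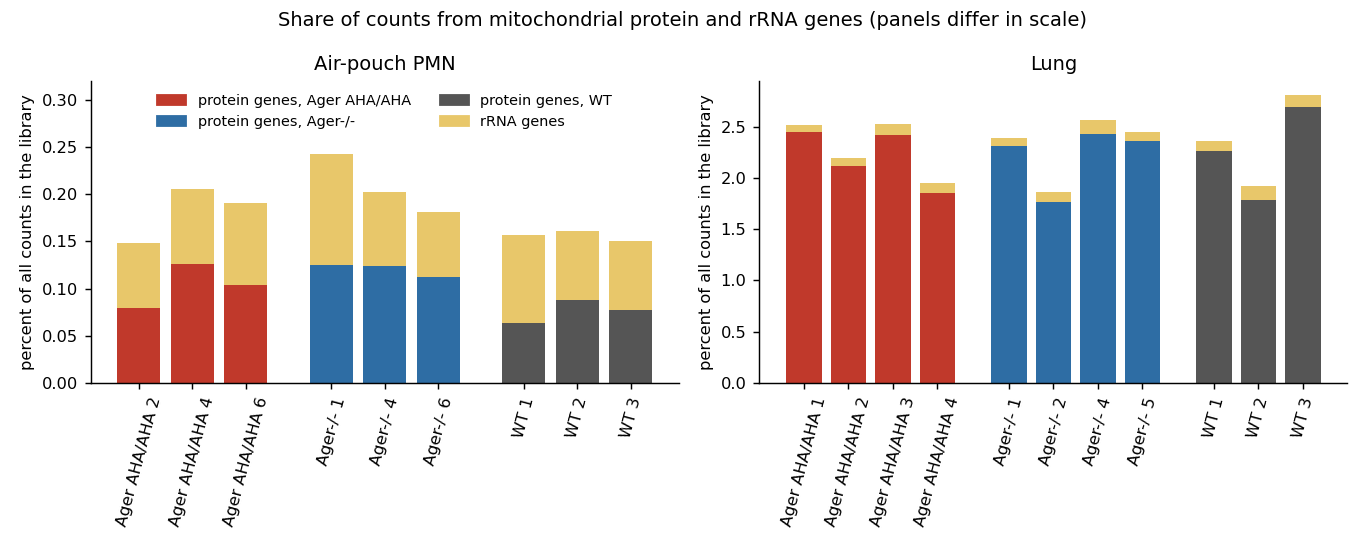
Percent of all counts in each library that came from mitochondrial protein genes (coloured by genotype) and rRNA genes (yellow), for PMN and lung, whose vertical scales differ. rRNA took 38.2% to 59.3% of mitochondrial counts in PMN libraries and 2.84% to 7.17% in lung libraries.

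In all libraries of a tissue, mitochondrial genes took 0.149% to 0.244% of counts in PMN and 1.87% to 2.81% in lung, and the balance of rRNA and mRNA differed too. The rRNA genes made up 38.2% to 59.3% of the mitochondrial counts of a PMN library, against 2.84% to 7.17% of those of a lung library. As a share of all counts, rRNA was at 0.0694% to 0.118% in PMN and 0.0718% to 0.138% in lung, which overlap, while the protein genes were at 0.0636% to 0.126% in PMN and 1.77% to 2.69% in lung. In the fit of WT PMN against WT lung, the 11 protein genes also tested in PMN alone were lower in PMN. They ran from mt-Nd2 at -3.43 to mt-Co1 at -1.79 on the log2 scale. mt-Atp8 and mt-Nd4l entered the test only through lung, so no fitted fold is given for them. mt-Atp8 had 0 counts in each WT PMN library, and mt-Nd3 and mt-Nd4l rest on 2 WT PMN counts each. The median of all 13 was -2.74, and without mt-Atp8 and mt-Nd4l it was -2.65, the value of mt-Atp6. The median over all 18180 genes tested was -1.24, and 54.2% of them were called lower and 29.2% higher. The 7 complex I genes had a median of -3.10 with the fitted values of mt-Nd3 and mt-Nd4l among them. Without those genes the middle value was that of mt-Nd5, -2.74. mt-Nd2 at -3.43 and mt-Nd4 at -2.46 marked the ends of the range. mt-Rnr1 (0.90, SE 0.23, adjusted p = 0.000860) and mt-Rnr2 (2.43, adjusted p = 8.28e-10) were higher in PMN by TMM scaling. By library totals, without that scaling, mt-Rnr1 was lower in PMN (-1.64) and mt-Rnr2 was at -0.10, while the median of all genes was at -3.72. Relative to that median the rRNA genes stood higher by 2.90 with TMM and by 2.85 with library totals, and the protein genes lower, at -1.50 and -1.53. Of 12 tRNA genes tested, 8 were called lower in PMN, but 5 of these had at most 2 counts over the WT PMN libraries together and could hardly come out otherwise, so nothing is read from that count. Tissue, LPS treatment and the way cells were collected cannot be told apart in this comparison.

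Whether a genotype's effect differed between tissues was tested as an interaction over all 20 libraries. edgeR called 0 of 27 members for the Ager AHA/AHA effect, where 1.46% of all genes were called in either direction, and 0 of 27 for the Ager-/- effect, where 9.13% were. Only 16 of the 27 had passed the filter on low counts in PMN, and the rest had few or no PMN counts. For those the test could decide little, so the 0 calls are not read as equal effects. At an unadjusted p under 0.05 the counts were 7 and 2. No share of all genes at that p was taken, so nothing is read from them. DESeq2 also called 0 for both effects, although it gave no adjusted p for 10 and 6 of the members. For mt-Nd3 the Ager AHA/AHA effect was larger in PMN than in lung by 2.23 on the log2 scale (SE 0.80, adjusted p = 0.146), a value that rests on 2 WT counts in PMN.

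The nuclear genes that work with the mitochondrial genome were followed in 12 lists with 250 rows. Beside their counts, the shares of all genes called higher and lower over WT were 1.8% and 1.84% in Ager AHA/AHA PMN, 6.65% and 4.01% in Ager-/- PMN, 0.0859% and 0.0859% in Ager AHA/AHA lung, and 1.45% and 1.64% in Ager-/- lung. All 37 nuclear complex I subunits were tested, and edgeR called 0 in any of the 4 comparisons of a mutant with WT (2 for Ager AHA/AHA and 5 for Ager-/- at an unadjusted p under 0.05 in PMN, and 4 for each in lung), with median log2 fold changes of 0.13 for Ager AHA/AHA and 0.15 for Ager-/- in PMN, and -0.13 for Ager AHA/AHA and -0.08 for Ager-/- in lung. Over the nuclear subunits of all 5 complexes, edgeR called 0 of 79 in PMN (6 for Ager AHA/AHA and 12 for Ager-/- at an unadjusted p under 0.05) and 0 of 81 in lung (7 for Ager AHA/AHA and 5 for Ager-/-). In Ager AHA/AHA PMN 1 of 227 listed genes tested was called, Mrpl23, a protein of the large mitochondrial ribosome subunit, which rose by 1.73 (SE 0.42, adjusted p = 0.0324). In Ager AHA/AHA lung edgeR called 0 of 248 (13 at an unadjusted p under 0.05), and in Ager-/- lung 1, Wars2, the mitochondrial tryptophanyl-tRNA synthetase, at 0.59 (SE 0.15, adjusted p = 0.0486).

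In Ager-/- PMN 11 listed genes were higher and 4 lower of 227, shares of 4.85% and 1.76% that lie under the 6.65% and 4.01% over all genes. Mitochondrial ribosome proteins made up 8 of the 11, of 76 tested, led by Mrpl28 (1.71, SE 0.36, adjusted p = 0.00988), Mrps2 (1.64, adjusted p = 0.0234) and Mrpl51 (1.68, adjusted p = 0.0244). Lrpprc, which stabilizes mitochondrial mRNAs, rose by 1.17 (SE 0.32, adjusted p = 0.0292), and Mtpap, the mitochondrial poly(A) polymerase, fell by 0.65 (SE 0.20, adjusted p = 0.0454). Iars2, the mitochondrial isoleucyl-tRNA synthetase, rose by 0.99 (SE 0.26, adjusted p = 0.0253). Of the regulators of mitochondrial biogenesis, Pprc1 rose by 1.23 (adjusted p = 0.0348) and Esrra fell by 0.59 (adjusted p = 0.0332). Polg2, the accessory subunit of the mitochondrial DNA polymerase, fell by 0.57 (adjusted p = 0.0410). edgeR called 0 of 8 genes of mitochondrial transcription (2 at an unadjusted p under 0.05) and 0 of 10 complex I assembly factors (0 at that p) there. The macrophage and T cell marker sums given above were higher, and the lung endothelium and neutrophil marker sums lower, in these libraries than in every WT library, and their part in the list results was not tested.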

How the data were processed

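RNA-seq libraries from mouse PMN and lung were made by the authors with a NEBNext Ultra kit from total RNA. Per the labels and methods, reads were called with CASAVA, trimmed with fastp, aligned to mm10 with STAR and counted with featureCounts. The deposited raw counts per gene were used as they stood, and the FPKM deposited by the authors (counts divided by gene length and a library constant) served only for alternatives. Tool versions, the strand setting and the treatment of reads with several matches were not given in the sources used. Deposited tables of the authors' own fold changes and p-values were not used.

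Members were all genes on MT, and all 37 had the same position in GENCODE M21 (GRCm38). Members and lists were chosen with earlier results of these data known. Counts were fitted with edgeR 4.0.16 in R 4.3.3 (robust quasi-likelihood test, TMM, default filter), the 3 genotypes of a tissue together, and p-values were adjusted over all genes tested (11632 in PMN, 17458 in lung, 18180 over both). Calls were made at an adjusted p under 0.05. Tissue and interaction contrasts used 1 fit of 6 groups, which treated all libraries as independent. Some replicate numbers recur between PMN and lung, and whether such libraries came from the same mice was neither given nor checked. Group values are mean ± SD, and CPM use TMM library sizes within a tissue. SE is that of the log2 fold change. Exact permutation tests used scipy 1.17.1, and ratios of counts a pseudocount of 0.5. Alternatives used DESeq2 1.42.0 and limma 3.58.1, and figures matplotlib 3.10.9. The scripts were tested on simulated data. Named genes were the 13 protein and 2 rRNA genes, tRNA genes called between genotypes or highest in a tissue, the 7 copy rows, and up to 3 called genes per nuclear list, of which 1 is not reported here. The study describes the libraries of a genotype as biological replicates, from several mice. Intervals and floors cover counting error only. Replicate numbers recur between groups. Of the comparisons with 3 same-numbered pairs, every pair was correlated above 0.1 only between Ager-/- and Ager AHA/AHA lung (0.117 to 0.167 over 3 pairs). There the differently numbered Ager AHA/AHA lung 3 and Ager-/- lung 1 were at 0.150, and no label gives a pairing, so the numbers are not read as pairs.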

Additional observations from a re-analysis of the deposited data

Results flagged for a closer look

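Among 26 values looked at in both lung groups of 4 libraries, 1 library stood far from the other 3 by Dixon's criterion, which chance meets in about 1 of 20 groups. It was mt-Co1 in Ager-/- lung 2, at 6260 CPM, against 8195 to 8455 CPM in the other Ager-/- lungs, a gap of 0.882 of the whole range.

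Gm28437, the chromosome 1 copy of mt-Co3, had effects that differed between tissues by the interaction test. In fits within each tissue, the log2 fold change of Ager AHA/AHA over WT was 0.78 in PMN and -0.78 in lung, and that of Ager-/- over WT was 0.98 in PMN and -0.21 in lung. The interaction, PMN minus lung, was 1.65 for Ager AHA/AHA (adjusted p = 0.0336) and 1.28 for Ager-/- (adjusted p = 0.0360) on the log2 scale. In PMN the row held 63 counts in all in Ager AHA/AHA, 77 in Ager-/- and 28 in WT libraries. The Ager AHA/AHA value lost its call without any 1 of PMN Ager AHA/AHA 4 and 6, PMN WT 1 and 3, lung Ager AHA/AHA 3 and 4, and lung WT 1 and 3 (adjusted p up to 0.107). The Ager-/- value lost it without any 1 of PMN Ager-/- 1 and 6, PMN WT 1 and 3, lung Ager-/- 1 and 2, and lung WT 1 and 3 (adjusted p up to 0.116).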

How the results depend on the processing

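The call of mt-Nd3 held in both lung comparisons that made it under every alternative, and without each library in turn, at 3.34 to 3.82 for Ager AHA/AHA over WT over the alternatives other than leaving out a library. In PMN, where the gene entered only through Ager AHA/AHA, the value was 3.92 to 6.41, and its calls are not read as stability. DESeq2 gave no adjusted p to mt-Nd3 and 6 other members for Ager-/- over Ager AHA/AHA in PMN. With library totals as the scaling, 6 members were called for Ager-/- over WT in PMN (mt-Co1, mt-Cytb, mt-Nd1, mt-Nd2, mt-Nd5 and mt-Tp) and 2 for the Ager-/- interaction, while the median of all genes in the first of these was at 0.40 instead of 0.01 and the protein genes stood 0.27 above it by either scaling. The shares of all genes called in these fits were not counted, so nothing is read from the 6 and the 2. Under the same setting mt-Rnr1 (-1.64) and mt-Rnr2 (-0.10) changed sign between WT PMN and WT lung. limma on log2(FPKM + 1) and on log2(FPKM + 0.1) called 1 member for Ager-/- over WT in lung.

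The replicate block left 1 member called for Ager AHA/AHA over WT in lung, where mt-Tg missed the threshold (adjusted p = 0.0714), and changed no other call of a member. There, as in every genotype comparison, the libraries are known to share only a number. In all but Ager-/- over Ager AHA/AHA in lung, some same-numbered pair was correlated at 0.1 or less or there were fewer than 3 pairs. For the sums of mitochondrial genes and copies, 2 were called over the 6 genotype comparisons, against 4 calls from the mitochondrial rows alone and 5 from the copies alone. Of the single-row calls, those in PMN followed from the filter. The sum of mt-Nd3 and Gm28438 in Ager AHA/AHA over WT lung lost its call with library totals (adjusted p = 0.0732) and without robust fitting (adjusted p = 0.0596), settings chosen after seeing the data. Leaving out 1 library at a time gave 1 call for Ager AHA/AHA over WT in PMN, 2 in lung, and 23 to 24 for WT PMN against WT lung. The PMN call and that of mt-Tg in lung followed from the filter. Counts below about 10 per library limit mt-Nd3 in WT and Ager-/- PMN and most tRNA genes.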
